A study of Homo sapiens with 6 samples.

Results

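The set examined here holds 10 genes that mark or direct the myeloid lineage, SPI1, CEBPA, CEBPB, CEBPD, CEBPE, CSF1R, CD14, CD68, LYZ and MPO, out of 20037 protein-coding genes in RefSeq. They were chosen by name, with no threshold on a measured value, and all positions are on hg38 (GRCh38.p14). Every peak that overlapped a gene's RefSeq span extended by 50 kb to each side was taken, which gave 210 peaks in 50 merged regions, out of 69562 merged regions in the whole genome. The peaks come from ATAC-seq, in which a transposase cuts and tags open chromatin, on Jurkat nuclei. Jurkat is a long-established line grown from a human T-cell leukaemia. By their labels, 3 libraries (SMG 1 to SMG 3) had simulated microgravity, with the nuclei turned in a random positioning machine at 30 degrees per second for 30 min, and 3 were made at normal gravity (NG 1 to NG 3). All 6 libraries started from nuclei of 50000 cells, with a 3 min lysis and a transposition of 30 min at 37 °C. The nuclei and not intact cells were turned, a single line stands for T cells, and the labels leave unsaid whether turning and transposition ran together. They also leave unsaid whether libraries of 1 group grew as separate cultures, so their spread and any p-value may be technical.

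Myeloid cells, which include monocytes, macrophages and granulocytes, and T cells arise from the same blood-forming progenitors. PU.1, the product of SPI1, and the C/EBP factors drive myeloid genes, and T-cell precursors shut SPI1 down as they commit. CSF1R and CD14 are receptors on monocytes and macrophages, CD68 marks their lysosomes, and lysozyme and myeloperoxidase are enzymes with which myeloid cells kill microbes.

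The lists held 42222, 42399 and 39624 peaks in SMG 1 to SMG 3 and 37782, 43713 and 40601 peaks in NG 1 to NG 3. A background pileup recovered from the deposited values, which stands for depth, was 1.59, 1.73 and 1.59 fragments in SMG 1 to SMG 3 and 1.17, 1.77 and 1.42 in NG 1 to NG 3. NG 1 thus had the shortest list and the lowest background. The labelled T-cell type was checked at promoters, where 8 of 11 T-cell genes with a RefSeq promoter entry held a promoter peak in all 6 libraries. They were led by LCK, the kinase that starts T-cell receptor signalling, at a mean score percentile of 92.3. Of the rest, TCF7 had no promoter peak in any library and CD1E had one in 2 SMG and 3 NG libraries. CD2 had one in all 3 SMG libraries and in no NG library, at score percentiles of 43.7, 26.8 and 31.2 in SMG 1 to SMG 3. Of the 15843 protein-coding genes with an entry, 12 had this pattern and 11 had the reverse, with a peak in all 3 NG libraries and in no SMG library. The score percentile of a peak is its rank by −log10 q-value among all peaks of its own library, with the strongest peak at 100. Since the lists hold called peaks and no reads, a missing peak says that none was called at that depth and does not show closed chromatin. In bulk nuclei, more open copies of a site and a site more open in each nucleus cannot be told apart.

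Peaks were called within 50 kb of all 10 genes. Of the 50 regions, 7 (14%) lay within 1 kb of an end of a myeloid gene or inside one, a stretch that makes up 11.95% of the bases of the windows. Of these 7, 2 were held by all 6 libraries, at the start of CD68 and just upstream of CEBPE. The other 43 regions lay away from the gene the window was drawn for, and 20 of them were held by all 6 libraries. No region near the 10 genes was held by all libraries of one group and none of the other, where 0.411% of all merged regions were held by the 3 SMG libraries alone and 0.26% by the 3 NG libraries alone. In the map of peaks by gene and library, most columns of marks stand outside the grey gene bodies.

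**Figure D1:**
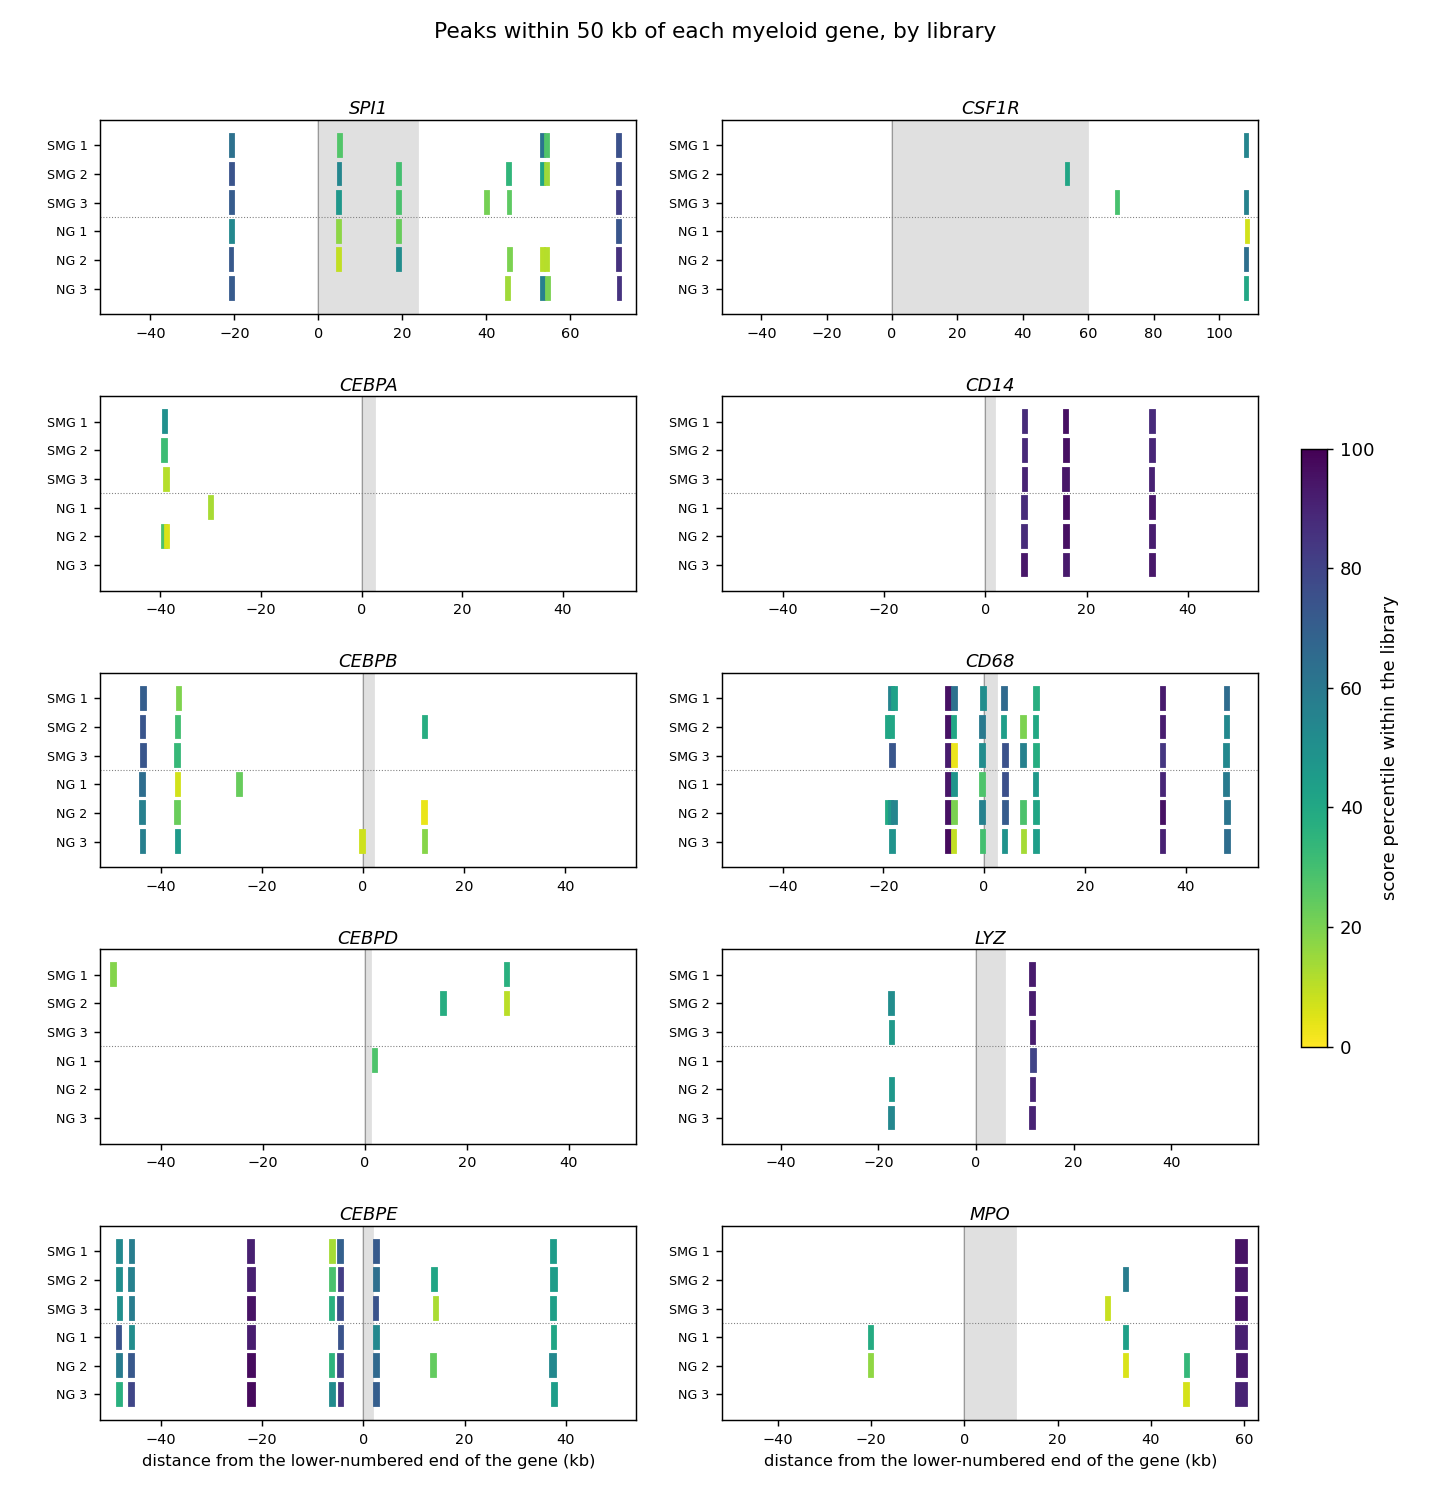
Every peak within 50 kb of the 10 myeloid genes, 1 panel per gene and 1 row per library (SMG above NG), by distance in kb from the lower-numbered end of the gene; the grey band is the gene and the colour gives the score percentile within the library. Peaks narrower than 0.9 kb are drawn 0.9 kb wide. CD14 shows 3 strong columns beside an empty gene body, and CEBPD shows no column in SMG 3, NG 2 or NG 3.

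SPI1 (chr11:47354860-47378547) encodes PU.1, an ETS-family factor on which macrophages and granulocytes depend. Its window held 5, 7 and 6 peaks in SMG 1 to SMG 3 and 4, 7 and 5 peaks in NG 1 to NG 3. Of the 10 genes it had the most peaks inside its own body, at 2 places and none within 1 kb of either end. The region at chr11:47359321-47360141 was called in every library except NG 3, at score percentiles of 27.2, 53.9 and 47.0 in SMG 1 to SMG 3 and 16.8 and 9.01 in NG 1 and NG 2. The 3 SMG peaks there ranked above both NG peaks. How often regions missing in 1 library separate in this way over the genome was not counted, and 3 against 2 libraries separate more readily than 3 against 3. The peaks also differed in width, with 200, 342 and 271 bp in SMG 1 to SMG 3 against 235 and 821 bp in NG 1 and NG 2. The region at chr11:47373933-47374201 was called in SMG 2 and SMG 3, at percentiles of 30.0 and 28.6, and in NG 1 and NG 2, at 23.4 and 51.3. The groups overlapped there. A peak of 1 library, SMG 3, at percentile 21.1, lay at chr11:47394817-47395066, 16.3 kb beyond the higher-numbered end of the gene. An upstream enhancer of SPI1 is known in myeloid cells, and whether this peak is that element was not tested. Both regions of the window held by all 6 libraries lay inside or at an end of other genes, and which gene they serve was not tested. One lay inside MYBPC3, which encodes a heart muscle protein, at a mean percentile of 67.6. The other lay at an end of PSMC3, which encodes a proteasome subunit, at 79.8.

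CEBPA (chr19:33299934-33302534) encodes the factor that commits progenitors to granulocytes, and it is the only one of the 10 genes with no other protein-coding gene in its window. No library had a peak within 1 kb of it, and the nearest region, 29.8 kb away, was called in NG 1 alone at percentile 12.9. A second region, chr19:33260545-33261323, lay downstream of the gene and was called in SMG 1, SMG 2 and SMG 3 at percentiles of 50.3, 31.3 and 11.1 and, in the NG group, in NG 2 alone at 28.0. It did not separate the groups, and its summits were scattered, at 41826, 41811 and 41430 bp from the start in SMG 1 to SMG 3 and at 41736 and 41375 bp for the 2 peaks of NG 2. A myeloid enhancer downstream of human CEBPA has been described, and whether this region is that element was not tested.

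CEBPB (chr20:50190583-50192690), a factor of inflammation and of emergency granulocyte production, had a promoter peak in 1 library, NG 3, at chr20:50190334-50190628. That peak ranked at percentile 7.59, with a summit pileup of 11 fragments. A region 9.97 kb from the gene was called in SMG 2 at percentile 37.6 and in NG 2 and NG 3 at 3.23 and 18.2. The 2 regions of this window that all 6 libraries held lay 36.3 kb away or farther, inside and at the end of PEDS1, which encodes a desaturase of ether lipids. The one inside PEDS1, chr20:50146760-50147492, had percentiles of 70.3, 73.6 and 73.2 in SMG 1 to SMG 3 against 64.5, 56.8 and 57.2 in NG 1 to NG 3. The 3 SMG libraries were all higher there, by 12.9 percentile points between the means.

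CEBPD (chr8:47736913-47738164), a factor induced in the acute-phase response, had the fewest peaks and the lowest share of its window covered among the 10 genes. By peaks per 100 kb the longer CSF1R window was lower, at 0.729 against 0.823 for CEBPD. The CEBPD window held 2 peaks in SMG 1, 2 in SMG 2 and none in SMG 3, against 1 in NG 1 and none in NG 2 or NG 3. The peak of NG 1, at percentile 27.9, lay 573 bp from the gene. The peaks of SMG 1 and SMG 2 coincided at 1 region 26.4 kb away, at percentiles of 36.6 and 10.4, and no region was called in more than 2 libraries.

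CEBPE (chr14:23117306-23119255) encodes the factor of late granulocyte maturation and was the only C/EBP gene of the set with a peak within 1 kb of an end in every library. All 6 libraries had a peak just upstream of its start, in chr14:23119363-23120306. The percentiles were 72.0, 63.8 and 74.3 in SMG 1 to SMG 3 and 53.2, 66.3 and 70.4 in NG 1 to NG 3. The groups overlapped, and NG 1 was the lowest. The summits lay 474, 483 and 488 bp upstream of the start in SMG 1 to SMG 3 and 870, 466 and 492 bp upstream in NG 1 to NG 3, so 5 of 6 libraries placed the summit close together and NG 1 placed it farther out. Summit pileups were 36, 36 and 43 fragments in SMG 1 to SMG 3 and 22, 37 and 35 in NG 1 to NG 3. The summits therefore lay beyond the RefSeq promoter, which covers 250 bases before to 50 bases after the start, and only the wide peak of SMG 3 (930 bp) reached into it. A stronger region chr14:23112423-23113154, lay 4.15 kb on the other side of the gene, between protein-coding genes. Its percentiles were 69.8, 81.7 and 76.6 in SMG 1 to SMG 3 and 74.5, 80.0 and 85.3 in NG 1 to NG 3, with overlapping groups. It was the only region of the 12 between protein-coding genes that all 6 libraries held. The strongest region of the window, at a mean percentile of 94.0, lay over the facing ends of ACIN1, an RNA-processing and apoptosis gene, and C14orf119.

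The promoters of CEBPE and CEBPA show how unlike these relatives are in base composition. Both are RefSeq sequences of GRCh38.p14, 5′ to 3′ on the minus strand, for chr14:23119206-23119505 (CEBPE) and chr19:33302485-33302784 (CEBPA). Capitals mark matches to TGANTCA (the AP-1 motif) and GAGGAA (a PU.1-type ETS motif) in CEBPE, and to GGGCGG (the GC box) in CEBPA. Each was sought on either strand, and a match on the other strand is printed as its reverse complement.
CEBPE: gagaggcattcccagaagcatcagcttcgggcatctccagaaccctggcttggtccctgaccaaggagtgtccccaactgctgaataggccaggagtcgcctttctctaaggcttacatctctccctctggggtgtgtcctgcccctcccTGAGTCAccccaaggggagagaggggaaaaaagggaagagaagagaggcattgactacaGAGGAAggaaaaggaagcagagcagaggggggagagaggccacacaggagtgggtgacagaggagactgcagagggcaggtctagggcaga
CEBPA: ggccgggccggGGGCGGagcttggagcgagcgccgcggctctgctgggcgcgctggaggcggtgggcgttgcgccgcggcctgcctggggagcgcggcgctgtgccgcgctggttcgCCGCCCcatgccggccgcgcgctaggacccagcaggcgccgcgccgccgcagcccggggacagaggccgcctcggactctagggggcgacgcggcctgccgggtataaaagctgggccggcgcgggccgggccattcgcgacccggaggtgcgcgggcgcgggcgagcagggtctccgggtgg
G and C made up 57.7% of the CEBPE promoter, which had 2 CpG pairs, and 80.7% of the CEBPA promoter, which had 50.

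CSF1R (chr5:150053295-150113365) encodes the receptor for colony-stimulating factor 1 on which macrophages depend. Neither of its RefSeq promoters held a peak in any library. The only peak inside its long body was in SMG 2, at chr5:150106753-150107096 and percentile 41.1, and the region next nearest, inside the neighbouring receptor gene PDGFRB, was in SMG 3 alone at 29.0. A region 47.9 kb away was called in SMG 1 and SMG 3 at percentiles of 54.5 and 55.5 and in NG 1, NG 2 and NG 3 at 6.82, 63.9 and 40.6. It was missing in SMG 2 and weak in NG 1, and the groups overlapped.

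CD14 (chr5:140631732-140633701) encodes the surface co-receptor for bacterial lipopolysaccharide on monocytes. Its window had 3 peaks in each of the 6 libraries and all were strong, but none touched the gene. The nearest, 5.31 kb away at chr5:140639011-140639969, overlapped a promoter of TMCO6, with percentiles of 87.7, 88.3 and 90.5 in SMG 1 to SMG 3 and 87.7, 87.5 and 94.0 in NG 1 to NG 3. The next lay at the ends of NDUFA2, which encodes a subunit of respiratory complex I, and IK, which encodes a splicing factor, at 95.8, 95.8 and 93.9 in SMG 1 to SMG 3 and 96.4, 95.7 and 93.2 in NG 1 to NG 3. Its summits fell within 16 bp of each other over the 6 libraries, the tightest of the regions held by all, where the median range was 161 bp and the widest 526 bp. The last, at WDR55, a gene of ribosome assembly, had 88.3, 89.3 and 90.9 in SMG 1 to SMG 3 against 94.0, 92.1 and 93.7 in NG 1 to NG 3. All SMG values were lower there, by 3.78 points between the means (SMG minus NG, -3.78).

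CD68 (chr17:7579638-7582111), which encodes a lysosomal glycoprotein of macrophages, was the only gene of the 6 with a RefSeq promoter entry to have a promoter peak in every library. The peak lay in chr17:7578996-7579867, a stretch that also holds the end of EIF4A1, which encodes a helicase of translation initiation, and the peaks do not tell the genes apart. Its percentiles were 51.1, 59.6 and 51.6 in SMG 1 to SMG 3 and 27.9, 56.3 and 29.8 in NG 1 to NG 3. The SMG values were close together and NG 2 fell among them, so the groups overlapped. Ranked by fold enrichment, the same peaks were among the weakest of their libraries, at percentiles of 11.1, 19.7 and 9.38 in SMG 1 to SMG 3 and 1.15, 14.3 and 2.55 in NG 1 to NG 3. Deposited scores were 80, 118 and 93 in SMG 1 to SMG 3 and 41, 104 and 52 in NG 1 to NG 3, and summit pileups were 33, 42 and 38 fragments in SMG 1 to SMG 3 and 23, 40 and 26 in NG 1 to NG 3. The lower values were those of the libraries with the lowest backgrounds, NG 1 and NG 3, and the part of depth in this was not tested. The summit was not fixed, at 101, 265 and 323 bp before the start in SMG 1 to SMG 3 and at 512, 98 and 118 bp before it in NG 1 to NG 3. With 10 other protein-coding genes in the window, CD68 also had the most peaks, 9, 10 and 9 in SMG 1 to SMG 3 and 7, 11 and 9 in NG 1 to NG 3. The strongest were at the other end of EIF4A1, at a mean percentile of 95.0, and at FXR2, which encodes an RNA-binding protein, at 90.8.

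The promoters of CD68, overlapped by a peak in all libraries, and of CD14, in which none was called, are shown. They have a similar share of G and C and share motif matches. Both are RefSeq sequences of GRCh38.p14, 5′ to 3′, for chr17:7579388-7579687 on the plus strand (CD68) and chr5:140633126-140633425 on the minus strand (CD14). Capitals mark matches on either strand to TGANTCA (AP-1), GAGGAA (PU.1-type ETS) and, in CD68, TTGCNNAA (C/EBP).
CD68: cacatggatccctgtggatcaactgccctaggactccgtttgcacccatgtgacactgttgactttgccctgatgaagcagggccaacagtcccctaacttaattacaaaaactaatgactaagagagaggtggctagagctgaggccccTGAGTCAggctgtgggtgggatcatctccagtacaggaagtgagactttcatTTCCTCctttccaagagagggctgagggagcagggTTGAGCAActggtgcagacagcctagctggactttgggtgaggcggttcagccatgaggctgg
CD14: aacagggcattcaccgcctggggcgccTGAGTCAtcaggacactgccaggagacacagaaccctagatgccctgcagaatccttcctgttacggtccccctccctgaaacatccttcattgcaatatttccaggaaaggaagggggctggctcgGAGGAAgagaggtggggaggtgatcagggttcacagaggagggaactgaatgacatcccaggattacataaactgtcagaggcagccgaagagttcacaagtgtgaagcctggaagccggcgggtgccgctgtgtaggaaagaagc
G and C made up 53.3% of the CD68 promoter, which had 2 CpG pairs, and 55.7% of the CD14 promoter, which had 8. In CD68 the AP-1 match lay at bases 151 to 157 from the 5′ end of the printed sequence, the ETS match at 203 to 208 and the C/EBP match at 238 to 245. In CD14 the AP-1 match lay at 28 to 34 and the ETS match at 155 to 160. A match describes the letters and does not show that a factor binds.

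LYZ (chr12:69348381-69354234) encodes lysozyme, which cuts bacterial cell walls. No peak touched it. A region 17.0 kb away was called in SMG 2 and SMG 3 at percentiles of 51.4 and 46.3 and in NG 2 and NG 3 at 46.7 and 53.6, and it was missing in SMG 1 and NG 1. The strong region of the window, chr12:69359348-69360625, lay 5.11 kb away at the end of YEATS4, which encodes a subunit of chromatin-modifying complexes. It ranked at 92.8, 92.5 and 92.2 in SMG 1 to SMG 3 against 79.8, 90.1 and 90.4 in NG 1 to NG 3. The 3 SMG libraries were all higher, by 5.74 points between the means, and NG 1 was the lowest.

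MPO (chr17:58269855-58280935) encodes myeloperoxidase, the granule enzyme that makes hypochlorous acid. No peak lay inside it or within 1 kb of it, and its nearest region, 19.4 kb away, was a weak peak of SMG 3 alone at percentile 8.33. A region inside LPO, which encodes the related lactoperoxidase, was called in NG 1 and NG 2 alone, at 38.9 and 16.4. At the far edge of the window, 47.1 kb away, lay the widest region of the set, chr17:58328077-58330550, at the end of TSPOAP1 and of MIR142HG, the host gene of miR-142. Its peaks were 2376, 2280 and 2468 bp wide in SMG 1 to SMG 3 and 2380, 2147 and 2262 bp wide in NG 1 to NG 3, with summit pileups of 144, 159 and 156 fragments in SMG 1 to SMG 3 and 96, 155 and 126 in NG 1 to NG 3. Its percentiles of 95.2, 94.0 and 94.8 in SMG 1 to SMG 3 were all above the 91.3, 93.0 and 90.5 of NG 1 to NG 3, by 3.02 points between the means. miR-142 is made throughout the blood lineages, T cells included. Its mature arms, which lie within 1 kb of this region, are shown as RefSeq gives them, 5′ to 3′, with the seed (bases 2 to 8) in capitals. They lie on the minus strand at chr17:58331245-58331267 (3p arm) and chr17:58331283-58331303 (5p arm), and their seeds differ.
hsa-miR-142-3p: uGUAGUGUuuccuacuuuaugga
hsa-miR-142-5p: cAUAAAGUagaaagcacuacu
By −log10 q-value this was the highest-ranked region of the MPO window in all 6 libraries. By fold enrichment it ranked at only 33.6, 29.4 and 23.3 in SMG 1 to SMG 3 and 23.1, 28.5 and 19.5 in NG 1 to NG 3, below another region of the window in SMG 2 and in NG 1.

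The question the groups address is whether turning nuclei in simulated microgravity changed which chromatin was open, here around myeloid genes. Across the 10 windows, the peaks summed to 32, 39 and 35 in SMG 1 to SMG 3 and 30, 41 and 33 in NG 1 to NG 3, or 35.3 ± 3.51 in SMG and 34.7 ± 5.69 in NG (mean ± SD, n = 3 each). They covered 20.3, 22.3 and 21.8 kb in SMG 1 to SMG 3 and 17.1, 23.3 and 20.9 kb in NG 1 to NG 3. The means of 21.4 ± 1.05 kb in SMG and 20.5 ± 3.12 kb in NG differed by 0.973 kb, less than the spread between the NG libraries. The highest library of the 6 and the lowest were both NG, NG 2 and NG 1, which also had the highest and the lowest background pileup.

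Gene by gene, no window separated the groups when all peaks were used. In 0 of 10 windows did the bases covered by peaks in all SMG libraries lie above or below those in all NG libraries, where 8.15% of the 18911 protein-coding gene windows with a peak were separated in either direction (6.66% with SMG above and 1.49% with SMG below). Among peaks with a score of at least 50, 1 of 10 windows did separate. That was CEBPB, with 733, 1083 and 702 bp in SMG 1 to SMG 3 against 517, 505 and 678 bp in NG 1 to NG 3, where 6.84% of all windows with such a peak had SMG above. With all peaks its difference ran the other way, at -220 bp (exact permutation p = 0.4). In 0 of 10 windows did the number of peaks separate the groups, beside 2.85% of the same windows. CEBPE had the largest difference, with 5211, 5365 and 5758 bp covered in SMG 1 to SMG 3 and 3817, 5429 and 4380 bp in NG 1 to NG 3. Its means of 5445 ± 282 bp in SMG and 4542 ± 818 bp in NG differed by 903 bp (exact permutation test, two-sided, p = 0.3, n = 3 each, Benjamini-Hochberg adjusted p = 1), and by 540 bp without NG 1. CEBPD had 481, 700 and 0 bp in SMG 1 to SMG 3 against 227, 0 and 0 bp in NG 1 to NG 3, a difference of 318 bp that rested on 2 SMG libraries (exact permutation p = 0.4). SPI1 had 2227, 2864 and 2075 bp in SMG 1 to SMG 3 and 1749, 3329 and 2932 bp in NG 1 to NG 3, which gave a difference of -281 bp (exact permutation p = 0.7). MPO had 2376, 2558 and 2906 bp in SMG 1 to SMG 3 and 2849, 3355 and 2488 bp in NG 1 to NG 3, a difference of -284 bp (exact permutation p = 0.5). CD14 was the steadiest, with 2639 ± 86.2 bp in SMG and 2604 ± 125 bp in NG. Over all 10 genes the adjusted p was 1, and the design of 3 against 3 cannot go below an exact p of 0.1 before adjustment. In 6 of the 10 windows NG 1 had the lowest cover of the 6 libraries. This is the library with the shortest list, and the part of depth in these differences was not tested.

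**Figure D2:**
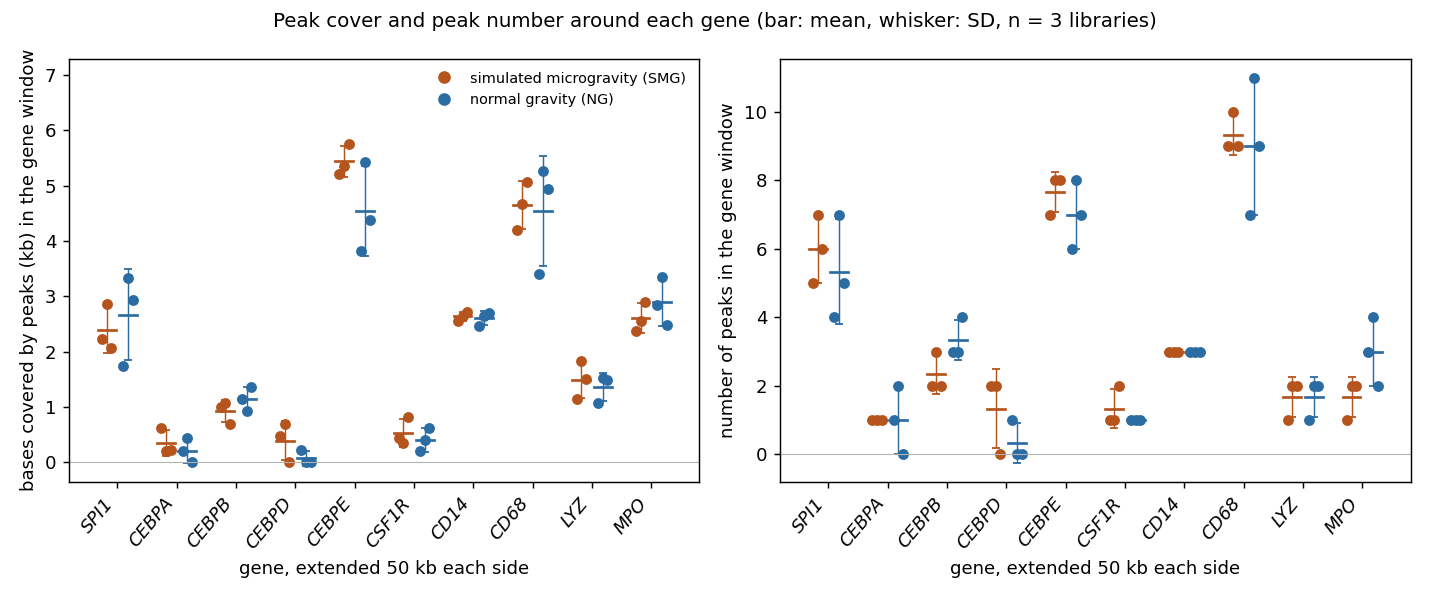
Bases covered by peaks (left, kb) and number of peaks (right) in the window of each gene, 1 point per library, with SMG left of NG; bars are means and whiskers SD over 3 libraries. The groups overlap for all 10 genes, and CEBPE and CD68 lead on both axes.

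The ranks of the regions that all libraries held were compared in the same way. Of the 22 such regions, 5 had percentiles that did not overlap between the groups, beside 10.4% of the 24103 such regions in the genome. The 22 regions share windows and libraries and carry no test. SMG was higher in 3 of them, at PEDS1 in the CEBPB window, at YEATS4 in the LYZ window and at TSPOAP1 and MIR142HG in the MPO window (5.34% of all such regions lay in this direction). SMG was lower in the other 2, at WDR55 in the CD14 window and at SOX15 and FXR2 in the CD68 window (5.06% of all). At the last, the percentiles were 37.2, 39.9 and 37.9 in SMG 1 to SMG 3 against 46.2, 40.8 and 44.4 in NG 1 to NG 3, a difference of -5.47 points. All 5 regions lay away from the myeloid genes, and neither the start of CD68 nor the region upstream of CEBPE was among them. Ranked by fold enrichment, 4 of the 5 stayed separate in the same direction, and the MPO window's region did not.

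The regions also differed by where they stood. The same shares were not counted over all merged regions of the genome, so they are not known to be particular to these windows. At ends of neighbouring genes, 13 of 18 regions were held by all 6 libraries and the 96 peaks had a median percentile of 75.0 and a median width of 617 bp. Inside the bodies of neighbours, 6 of 13 regions were held by all, with a median percentile of 53.2. Between protein-coding genes, 1 of 12 regions was held by all, and the 38 peaks had a median percentile of 36.6 and a median width of 337 bp. Inside the myeloid genes none of the 3 regions was held by all, and the 10 peaks had a median percentile of 29.3 and a median width of 235 bp. Of these peaks, 1 lay in CSF1R and the rest in SPI1. At ends of myeloid genes alone, 1 of 3 regions was held by all, and the 8 peaks had medians of 65.0 and 686.5 bp. The region at the CD68 start, shared with EIF4A1, was held by all, and its 6 peaks had medians of 51.3 and 679 bp. Of the 8 regions held by all 6 libraries at a mean percentile of 80 or more, 7 overlapped the promoter of another gene. By library, the median percentile of the peaks around the 10 genes was 62.1, 51.1 and 55.5 in SMG 1 to SMG 3 and 53.2, 53.3 and 53.6 in NG 1 to NG 3, and the groups overlapped.

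**Figure D3:**
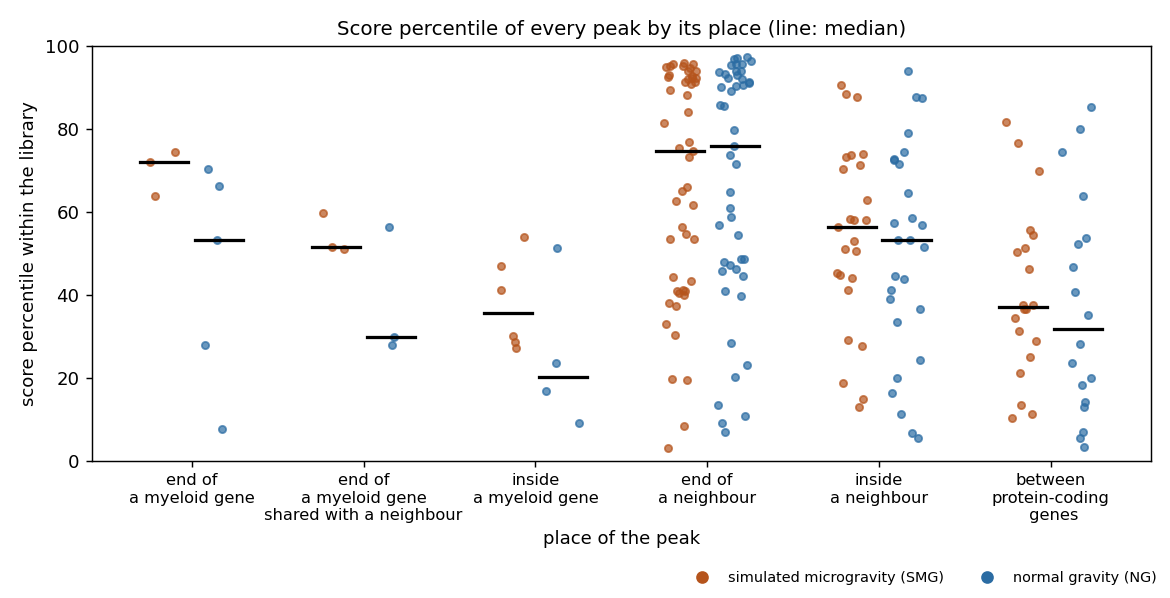
Score percentile of each of the 210 peaks within its own library (0 to 100) by the place of the peak, with SMG left of NG; points are peaks, spread sideways at random, and lines are medians. Peaks at ends of neighbouring genes reach the highest percentiles, and peaks inside the myeloid genes stay under 60 in every library.

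Set beside the genome, the myeloid windows spanned nearly the whole range of peak cover. Peaks covered a median of 1.70% of the 10 windows and of 1.33% of all 20037 windows, with quartiles of 0.598% and 2.28% for all. The 10 windows held a median of 2.44 peaks per 100 kb, against 2.29 for all. Ranked by cover among all windows, CEBPE stood at the 97.8th percentile, CD68 at the 96.8th, CD14 at the 80.2nd and MPO at the 78.8th. SPI1 followed at the 69.7th, LYZ at the 50.6th and CEBPB at the 39.5th, and CSF1R, CEBPA and CEBPD stood at the 15.5th, 14.9th and 13.8th. In the same order of cover, the windows held 4, 10, 7, 2, 4, 1, 3, 2, 0 and 2 other protein-coding genes, so that MPO had as few as CSF1R and CEBPD. Regions held by all 6 libraries made up 44% of the regions around the 10 genes, against 34.6% of all merged regions, which were not limited to gene windows.

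Promoters of the set gave few calls. Of the 6 genes with a RefSeq promoter entry, 1 (CD68) had a promoter peak in all 6 libraries and 3 (CEBPA, CSF1R and CD14) had none in any, against 44.9% and 43.0% of the 15843 protein-coding genes with an entry. CEBPE and CEBPB each had a promoter peak in 1 library, SMG 3 for CEBPE and NG 3 for CEBPB. SPI1, CEBPD, LYZ and MPO have no entry in the promoter table used, and by gene ends, within 1 kb of either, SPI1, LYZ and MPO had no peak and CEBPD had the peak of NG 1.

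Other genes of myeloid cells were counted by role, out of the genes of each list with a RefSeq promoter entry. Among regulators, 6 of 13 (46.2%) had a promoter peak in all 6 libraries and 5 (38.5%) had none in any, against 44.9% and 43.0% of all protein-coding genes, so this list was close to the genome. The 5 with none were KLF4, GATA2, MYB, SPIB and SPIC, named after their values were seen. The 6 were led by EGR2, an activation-induced factor also used by T cells, at a mean percentile of 98.1, and by GFI1, a repressor shared by granulocytes and T cells, at 86.2. IRF8, a factor of monocytes and B cells, followed at 81.6 and CEBPZ, which shares a name but not the leucine zipper of the C/EBP factors, at 76.0. Among ligands and receptors, 0 of 12 had such a peak and 9 had none in any library. Among granule and antimicrobial genes, 0 of 10 had one and 9 had none, and the exception, CTSG, which encodes the granule protease cathepsin G, had peaks in 3 SMG libraries and 2 NG libraries, at a mean percentile of 39.8. Among surface and effector genes, 1 of 14 had a promoter peak in all libraries and 13 had none. That 1 was CYBA, which encodes a subunit of the NADPH oxidase, at 64.3.

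**Figure D4:**
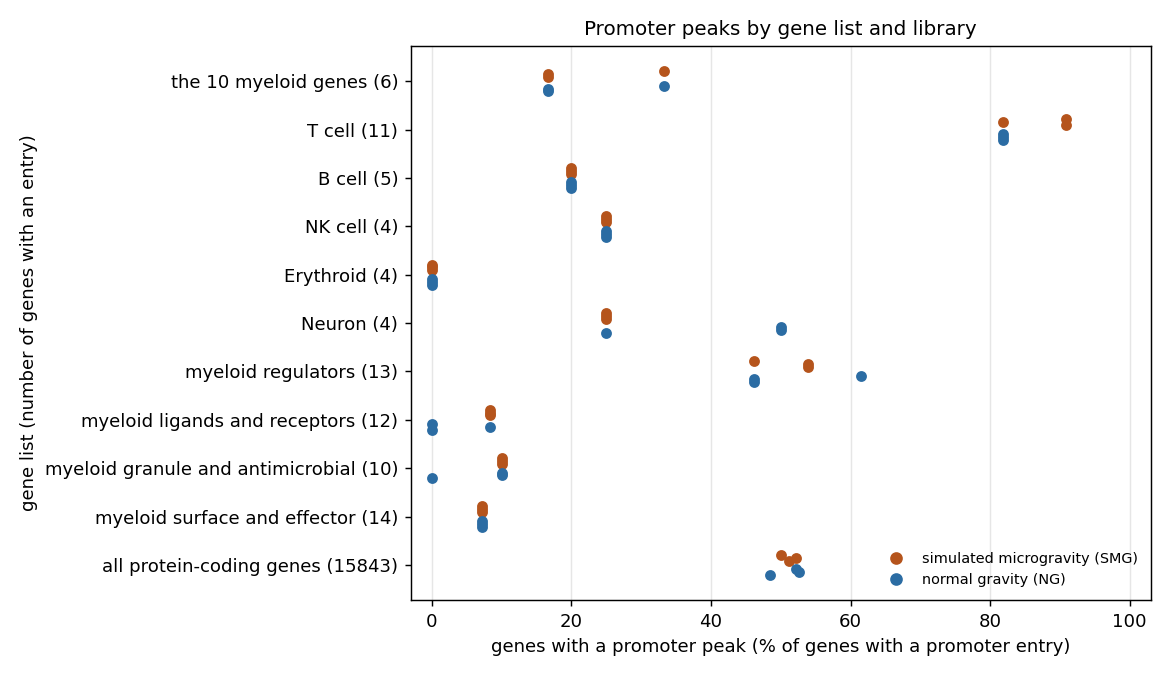
Share of the genes of each list with a promoter peak, in percent of the genes with a RefSeq promoter entry (number in brackets), 1 point per library with SMG drawn above NG. The T-cell list lies at 81.8% or more in all 6 libraries, the 10 genes studied here lie at 16.7% or 33.3%, and the ligand and receptor, granule and surface lists lie at 10% or less.

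Lists of other lineages were counted in the same way. All 6 libraries had a promoter peak at 1 of 5 B-cell genes (VPREB1, at 29.7), 1 of 4 NK-cell genes (NKG7, at 43.7), 0 of 4 erythroid genes and 1 of 4 neuron genes (SYT1, at 68.4). The T-cell list, with 8 of 11, also held PTCRA at a mean percentile of 78.3, BCL11B at 76.9 and LAT at 74.7, beside LCK. Within 1 kb of a gene end, which every listed gene allows, peaks in all 6 libraries stood at 13 of 16 T-cell, 4 of 10 B-cell, 2 of 7 NK-cell, 0 of 8 erythroid and 2 of 6 neuron genes, against 46.6% of all protein-coding genes. By the same measure the B-cell list, at 40%, was near the genome. The myeloid lists had such peaks at 6 of 14 regulators (42.9%) and at 2 of 17 ligands and receptors. They also had them at 2 of 18 granule and antimicrobial genes and 3 of 21 surface and effector genes. These lists are short, and they carry no test.

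Base composition went with promoter peaks across the genome, and the 10 genes lie at several points of that relation. Over 22199 promoters in 10 bins of G and C content, the share with a peak in at least 1 library was 10.2% in the lowest bin, 72.0% in the eighth and 47.7% in the highest. CEBPA and CEBPB lie in the highest bin (76.3% to 94% G and C), where 20.8% of promoters had a peak in all 6 libraries and 52.3% had none. CD68 lies in the third bin (50.3% to 55.3%), where 31.6% had a peak in all 6, together with one of the CSF1R promoters. CD14 and CEBPE lie in the fourth (55.7% to 59.3%), where 43.8% had one. The part of composition in the missing call at CEBPA was not tested.

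**Figure D5:**
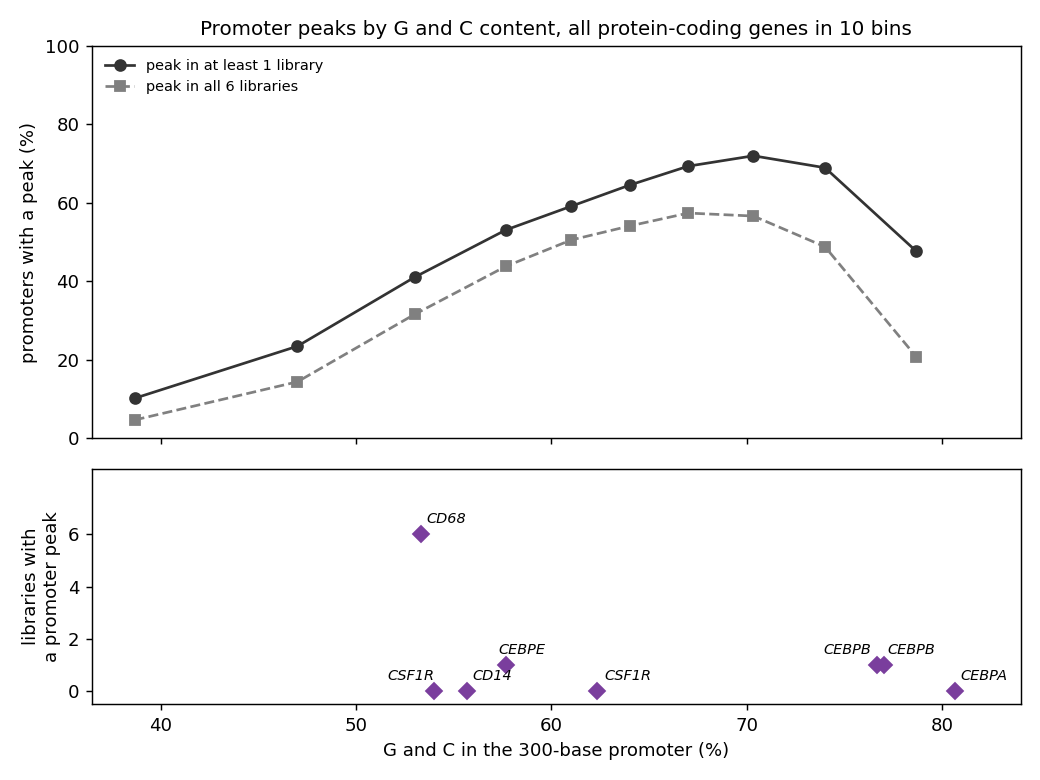
Top: percent of all 22199 promoters with a peak in at least 1 library (circles) or in all 6 (squares), by G and C content, each point at the median of 1 of 10 bins. Bottom: number of libraries with a peak in each promoter of the myeloid genes that have a RefSeq entry, of which CD68 alone reaches 6.

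Motif letters were counted in the promoters of the 6 genes. The shares given beside them are of promoters, and CEBPB and CSF1R have 2 promoters each. GAGGAA, on either strand, was found in promoters of CD14, CD68, CEBPE and CSF1R and in 27.9% of all promoters. TGANTCA was found in the same 4 genes and in 6.15% of all promoters. TTGCNNAA was found in CD68 alone of the 6 genes and in 8.69% of all promoters, and TGTGGT (the RUNX motif) in CSF1R alone and in 11.3%. GGGCGG was found in CEBPA, CEBPB and CSF1R and in 56.3% of all promoters. In CSF1R the ETS letters and the AP-1 letters lay in different promoters, so 3 genes had both in 1 promoter. Of these, CD68 had a promoter peak in 6 libraries, CEBPE in 1 and CD14 in none.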

How the data were processed

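ATAC-seq peak lists of 6 Jurkat libraries (3 SMG, 3 NG) were used as deposited, 1 list per library without header, in the layout MACS2 writes. The submitters' processing notes name the build hg38 and the tools MACS2, SAMtools, Bowtie, BWA and FastQC. Tool versions, settings, duplicate handling and any transposase shift were not given in the sources used here. In the files as deposited, the score is a whole number that lay within 1 of 10 times the −log10 q-value in at least 99.955% of peaks of each library. The deposited fold enrichment is a linear ratio of summit height to local background, and the −log10 q-value and −log10 p-value are those of the authors' peak caller. Peak names of SMG 3 carry the word "normalized", with a meaning not given in the sources used here. Since scores move with depth, they were ranked within each library.

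Summit pileup and background were solved from the deposited fold and −log10 p-value by the peak caller's formulas, within 0.001, for 99.8385 to 99.9606% of peaks. The lists hold no reads, so no counting interval was given. Peaks were merged into regions where they overlapped by at least 1 bp. A gene or promoter held a peak on an overlap of at least 1 bp. Gene spans and promoters came from RefSeq tables of GRCh38.p14. Covered bases per window were compared by exact permutation tests over the 6 libraries, two-sided, with Benjamini-Hochberg adjustment over 18911 windows. Sums over the 10 genes, counts of regions, percentiles and lists had no test. The steps were tested on simulated data.

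The genes, the lists and the comparisons were chosen with earlier results of these data known. All 10 genes are named. Neighbours are named where an end lay within 1 kb of a region held by all 6 libraries, and from each list up to 4 genes with a promoter peak in all 6 and the highest mean percentile. Other named genes (such as MYBPC3, PDGFRB, LPO and CTSG) were named after their values were seen, to place a region or an exception. Alternatives were flanks of 10 kb and 100 kb, a score of at least 50, lists cut to the shortest (37782 peaks), peaks taken by their centre, a reciprocal overlap of 0.5, ranks by fold, a replicate block and each library left out. Python 3.11.15, numpy 2.4.6, pandas 2.3.3, scipy 1.17.1 and matplotlib 3.10.9 were used.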

Additional observations from a re-analysis of the deposited data

How the results depend on the processing

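Differences in covered bases (SMG minus NG) changed sign under several settings, and 3 against 3 libraries cannot pass 0.05 under any. With a 10 kb flank they were -75.7 bp for CEBPD, -9.33 bp for CD14 and -173 bp for CD68, and no value could be had for CEBPA and MPO, which had no peak there. With a 100 kb flank they were -289 bp for LYZ and 497 bp for MPO. With a score of at least 50 they were 448 bp for SPI1 and 273 bp for CEBPB (exact permutation p = 0.1, the smallest possible), and SPI1 had 271 bp with lists cut to the shortest. Leaving out each library in turn gave -742 to 48.2 bp for SPI1, -5 to 246 bp for CEBPA, -35 to 85 bp for CD14, -458 to 477 bp for CD68, -29.7 to 309 bp for LYZ and -17.2 to 233 bp for CSF1R. CEBPE stayed positive, at 540 to 1346 bp, as did CEBPD, at 165 to 515 bp. CEBPB ran from -327 to -106 bp and MPO from -489 bp without NG 3 to -55.2 bp without NG 2, and MPO had -73 bp at a score of at least 50. The lower end for SPI1 and CD68 and for CEBPE came without NG 1. The sum of peaks differed by -1.67 to 3.83 between the groups. The labels do not say whether equal replicate numbers mark paired libraries. Deviations in cover over the gene windows correlated at 0.185, 0.135 and 0.0106 between same-numbered SMG and NG libraries 1 to 3. Between libraries of different number the correlations ran from -0.166 to 0.0625. These correlations share libraries and depend on each other, so they do not settle the pairing. With the replicate block the exact p ran from 0.25, the smallest it can give, to 0.75, and the difference for CEBPE was again 903 bp. The promoter-peak count of 1 gene in all libraries became 2 within 1 kb of the start, 0 at a score of at least 50 (CD68 in NG 1 scored 41) and 2 with both gene ends of all 10 genes, chosen after seeing the data. The median percentile of 53.8 became 46.4 ranked by fold. Leaving out each library, also chosen after seeing the data, gave 6 to 9 regions without overlap, 9 without NG 1, where 3 against 2 libraries separate more readily. The share over all regions of the genome was not counted for these settings, so these counts have no background beside them. Weak peaks near the genes differed from list to list, and the part of depth in this was not tested.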
